A study of Mus musculus with 4 samples.

Results

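The genes described here are 10 members of the intermediate filament family, *Gfap*, *Vim*, *Nes*, *Synm*, *Des*, *Prph*, *Nefl*, *Nefm*, *Nefh* and *Ina*, taken by symbol from the 24322 gene symbols in the files. All 10 were found in each of the 4 libraries, and 4 of them (*Gfap*, *Vim*, *Nefl* and *Ina*) reached a mean FPKM of at least 1, the level from which a gene entered the test. FPKM is the number of fragments on a gene, scaled to the length of its exons and to the mapped fragments of the library. Each library was made from the mTFP-positive cells of 1 mouse, sorted from the retina at P14 after tamoxifen at P4, and the labels give 129S6 as the line. The 2 control mice (7984 and 3911) were Raxflox/WT and the 2 *Rax* iCKO mice (7983 and 3914) were Raxflox/flox. All 4 also carried Rlbp1-CreERT2 and R26-CAG-LoxP-mTFP1, and all received tamoxifen. The controls thus also carried 1 floxed *Rax* allele, and the comparison asks what differs when both alleles are floxed. The *Rax* iCKO mice are called mutants where a mouse is named. A fragment of the *Rlbp1* promoter drives the Cre, and by the study's account the reporter was also switched on in pigment epithelium. *Rax*, the targeted gene, was at 189.1 and 181.4 FPKM in controls 7984 and 3911, against 111.4 and 98.4 FPKM in mutants 7983 and 3914.

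The depth was estimated from the whole-read steps of low FPKM values, at about 12700000 mapped reads in mouse 7984 and between 9270000 and 9430000 in the other 3 libraries. Libraries were closest by mouse number rather than by genotype: across 12363 genes, which are not independent replicates, r of log2(FPKM + 1) was 0.970 both between mice 7984 and 7983 and between mice 3911 and 3914, against 0.955 within the *Rax* iCKO group and 0.952 within the control group. All 12 Müller glia markers were present, with *Rlbp1* between 1292 and 2616 FPKM and *Glul* between 1002 and 1702 FPKM. RNA known from other retinal cells was present as well. *Pcp2*, a bipolar cell gene, was between 2071 and 6515 FPKM. In such pools, fewer cells of a type and less RNA per cell cannot be told apart.

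Intermediate filaments are rope-like polymers that give a cell its tensile strength, and which members are used depends on the cell type. Müller glia and astrocytes build theirs mainly from vimentin and GFAP, with nestin and synemin as partners, and a rise in GFAP is the classical sign of reactive gliosis. Neurons use the neurofilament subunits NEFL, NEFM and NEFH with alpha-internexin (*Ina*) and, in some cells, peripherin (*Prph*), and these set the calibre of axons. Desmin (*Des*) belongs to muscle and to the mural cells of vessels.

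Rax is a homeodomain transcription factor, and the study took TAATT as its predicted binding letters. The table of RefSeq promoters on GRCm38.p6 held 7 of the 10 genes. *Nefl*, *Nefm* and *Nefh* were not in it. In the 250 bases before the start, TAATT on either strand occurred in 1 of the 7 genes, *Vim*, and in 25.0% of the 32851 promoters of the table. TTCNNNGAA, which is its own reverse complement and is a form of the letters that STAT factors bind, occurred in 0 of the 7 and in 7.02% of all promoters. The match in *Vim* lies 194 to 190 bases before the start, on the strand opposite to the gene. It falls in an exon of a longer *Vim* transcript in GENCODE, so only the match, in capitals, and 10 bases on each side are printed (chr2:13574107-13574131, GRCm38.p6, plus strand).
Vim: tagcacttccAATTAgtaacaggac
The whole windows of *Gfap*, the gliosis marker (chr11:102897201-102897450, minus strand), and of *Ina*, the most abundant neuronal member (chr19:47014431-47014680, plus strand), are printed because they hold neither set of letters, so nothing in them is in capitals. The *Gfap* window lies inside the span of the gene in GENCODE but holds 0 bases of exons. The study looked for TAATT over a longer stretch of the *Socs3* promoter, and windows of 250 bases do not show what lies further out. The bases G and C made up 55.6% of the *Gfap* window and 70.8% of the *Ina* window.
Gfap: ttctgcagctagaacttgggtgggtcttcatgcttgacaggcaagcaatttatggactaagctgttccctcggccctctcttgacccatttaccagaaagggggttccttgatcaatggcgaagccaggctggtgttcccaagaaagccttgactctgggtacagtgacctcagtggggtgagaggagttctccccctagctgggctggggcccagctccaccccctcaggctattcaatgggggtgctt
Ina: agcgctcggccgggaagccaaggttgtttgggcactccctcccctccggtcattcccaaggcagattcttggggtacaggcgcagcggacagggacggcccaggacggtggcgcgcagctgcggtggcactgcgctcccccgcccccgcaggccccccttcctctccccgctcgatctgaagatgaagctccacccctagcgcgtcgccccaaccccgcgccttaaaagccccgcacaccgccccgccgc

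The 10 genes spanned a wide range of levels, and each class was carried by a single gene. *Vim* had a mean of 215.2 FPKM over the 4 libraries, which placed it 440th among all symbols. *Ina* followed at 32.9 FPKM, *Gfap* at 6.31 FPKM and *Nefl* at 2.83 FPKM, and the ranges of these 4 did not touch each other or those of the other members. *Nes* (0.974 FPKM) and *Nefh* (0.911 FPKM) overlapped in range, as did *Nefh* and *Synm* (0.788 FPKM). *Nefm* (0.248 FPKM), *Prph* (0.175 FPKM) and *Des* (0.0350 FPKM) were lowest, and the range of each overlapped that of the next. The neurofilament triplet was therefore uneven, with *Nefl* between 2.47 and 4.21 times *Nefh* in a library. *Ina* alone held between 84.9% and 93.6% of the summed FPKM of the 5 neuronal genes.

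**Figure D1:**
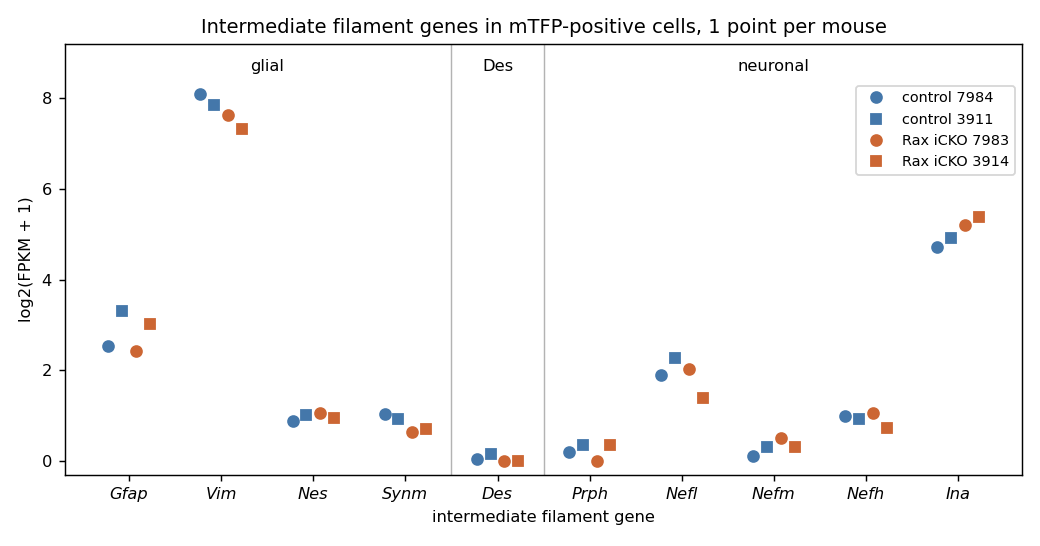
Level of each intermediate filament gene on the log2(FPKM + 1) scale, 1 point per mouse, with control in blue and *Rax* iCKO in orange, circles for mice 7984 and 7983 and squares for mice 3911 and 3914. *Vim* and *Ina* stand above the other 8 genes, and *Vim* is lower and *Ina* higher in both *Rax* iCKO mice than in both controls.

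Groups were compared on log2(FPKM + 1) with limma, a linear model that shares variance between genes, and p-values were adjusted over the 12363 genes at or above a mean of 1 FPKM. Of these, 0.0243% (3 genes) had an adjusted p under 0.05 and 2.86% an unadjusted p under 0.05. Of the 4 filament genes tested, 0 passed either threshold in this fit. The unadjusted outcome changed when limma was blocked on the number pairs of the mice, where *Vim* had an unadjusted p of 0.0028 and *Ina* of 0.0076 among 1938 genes under 0.05, and neither passed after adjustment (0.111 and 0.150). Their median log2 fold change was -0.29, against -0.0044 over all genes tested. A design of 2 mice against 2 cannot give a two-sided exact permutation p below 0.333.

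*Vim*, which encodes the main filament of Müller glia (GRCm38 chromosome 2, 13573927 to 13582826, plus strand), was at 273.0 and 231.5 FPKM in controls 7984 and 3911, against 197.0 and 159.2 FPKM in mutants 7983 and 3914. Both *Rax* iCKO libraries were below both controls. Control libraries averaged 252 ± 29.3 FPKM and *Rax* iCKO libraries 178 ± 26.7 FPKM (both SD, n = 2). The ratio was 0.706 (two-sided exact permutation p = 0.333). On the log2 scale the fold change was -0.50 (standard error 0.25, limma adjusted p = 0.9999). Within the pairs of mice close in number, the difference in log2(FPKM + 1) was -0.47 for mouse 7983 minus 7984 and -0.54 for mouse 3914 minus 3911. The summed FPKM of the Müller glia markers was lower in *Rax* iCKO as well, at 10205 and 10233 against 14981 and 11245 in control. Of the 12 markers, *Rlbp1*, *Apoe* and *Cp* were lower without overlap, against 14.1% of all genes tested, and the other 9 overlapped, with *Kcnj10* at a log2 fold change of 0.093. *Apoe* (3901 to 5041 FPKM) and *Rlbp1* were the most abundant in the sum. Per 1000 FPKM of these markers, *Vim* was at 18.2 and 20.6 in controls 7984 and 3911, against 19.3 and 15.6 in mutants 7983 and 3914, where the groups overlapped. With libraries set to equal marker sums, the log2 fold change of *Vim* was -0.16, while the median of all genes moved to 0.30.

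*Gfap*, on the minus strand of chromosome 11 (GRCm38, 102887336 to 102900912), was at 4.80 and 8.94 FPKM in controls 7984 and 3911, against 4.38 and 7.14 FPKM in mutants 7983 and 3914. The groups overlapped, and mice 3911 and 3914 were both above mice 7984 and 7983. The log2 fold change was -0.20 (standard error 0.37, limma adjusted p = 0.9999), and the differences within number pairs were -0.11 and -0.29. It was 0.19 without control mouse 3911, 0.10 without *Rax* iCKO mouse 7983, -0.59 without control mouse 7984 and -0.50 without *Rax* iCKO mouse 3914. It was 0.09 with equal Müller glia marker sums. The summed FPKM of the bipolar cell markers, most of it *Pcp2* and *Gng13*, followed the same order of pairs. It was 4318 and 5871 in mice 7984 and 7983 and 10623 and 8765 in mice 3911 and 3914. Not every marker did so, since *Trpm1*, *Grm6* and *Prkca* were higher in mutant 7983 than in control 3911. The part of bipolar cell RNA in the *Gfap* level was not tested. Of the astrocyte markers, *Pax2*, the defining factor of retinal astrocytes, was listed at 0 in 3 libraries and at 0.0381 FPKM in control mouse 3911. Of the 5 astrocyte markers tested, *Aldh1l1* (44.2 and 30.5 FPKM in controls against 22.4 and 20.9 FPKM in *Rax* iCKO) and *Pdgfra* (5.58 and 5.10 FPKM against 4.404 and 1.84 FPKM) were lower without overlap, compared with 14.1% of all genes tested. The summed FPKM of all 10 astrocyte markers, several of which Müller glia also express, was between 564.8 and 828.7.

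The partners of these filaments were scarce. *Nes*, which encodes the nestin of immature and reactive glia, was at 0.848 and 1.02 FPKM in controls against 1.09 and 0.941 FPKM in mutants 7983 and 3914, and the groups overlapped. *Synm*, which encodes the synemin that copolymerises with vimentin, was at 1.04 and 0.900 FPKM in controls 7984 and 3911, against 0.567 and 0.641 FPKM in mutants 7983 and 3914. Both *Rax* iCKO values of *Synm* were below both controls, a difference of -0.30 in mean log2(FPKM + 1), on roughly 40.7 to 101 reads a library. *Des* was listed at 0 in both *Rax* iCKO libraries and at 0.0274 and 0.113 FPKM in the controls. The smallest whole numbers of reads that fit these *Des* values were 1 and 3. Of the 10 markers of pericytes and smooth muscle, *Pdgfrb* was at 10.3 to 24.7 FPKM, *Mcam* at 5.35 to 6.56 FPKM, *Rgs5* at 0.534 to 1.65 FPKM and *Tagln* at 0.283 to 1.07 FPKM. *Acta2* and *Myh11*, of contractile cells, were under 0.1 FPKM in every library, and *Anpep* was listed at 0. The summed level of the list was 33.8 and 18.0 FPKM in controls against 30.9 and 19.8 FPKM in *Rax* iCKO, and its part in the *Des* values was not tested.

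*Ina* (GRCm38 chromosome 19, 47014698 to 47025327, plus strand) was, of the 10 members, the 1 that was higher in *Rax* iCKO without overlap. It was at 25.5 and 29.5 FPKM in controls 7984 and 3911, against 35.9 and 40.6 FPKM in mutants 7983 and 3914. Both *Rax* iCKO libraries were above both controls, with averages of 38.2 ± 3.36 FPKM against 27.5 ± 2.82 FPKM (both SD, n = 2, two-sided exact permutation p = 0.333). On the log2 scale this was a change of 0.46 (standard error 0.21, limma adjusted p = 0.9999), and within number pairs the differences were 0.48 and 0.45. It was 0.79 with equal Müller glia marker sums, a scaling that raised the median of all genes to 0.30. *Nt5c2* shares 456 of the 3240 exon bases of *Ina* on the opposite strand, and whether the counting used strand is not given in the sources used here. *Nt5c2* overlapped between the groups, at 20.9 and 22.2 FPKM in controls against 18.5 and 23.5 FPKM in *Rax* iCKO.

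The other 4 neuronal filaments overlapped between the groups. *Nefl*, the light neurofilament subunit, was at 2.75 and 3.83 FPKM in controls 7984 and 3911, against 3.12 and 1.61 FPKM in mutants 7983 and 3914. The groups overlapped (log2 fold change -0.38, standard error 0.34, limma adjusted p = 0.9999), and the differences within number pairs had opposite signs, 0.14 and -0.89. Without mutant 3914 the log2 fold change of *Nefl* was -0.05. *Nefh*, the heavy subunit, was at 0.994 and 0.909 FPKM in controls against 1.09 and 0.651 FPKM in *Rax* iCKO, with overlap. *Nefm*, the medium subunit, was at 0.0777 and 0.249 FPKM in controls against 0.419 and 0.248 FPKM in mutants 7983 and 3914. These *Nefm* values fitted 3 and 7 reads in control and 12 and 7 reads in *Rax* iCKO. *Prph*, at 0.150 and 0.275 FPKM in controls and at 0.274 FPKM in mutant 3914, fitted 3 and 4 reads in control, 0 in mouse 7983 and 4 in mouse 3914. In GENCODE a *Nefm* transcript runs across *Nefl* on the opposite strand, with 1108 of the 3380 exon bases of *Nefl* shared, so that without strand the split of reads between this pair is uncertain.

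**Figure D2:**
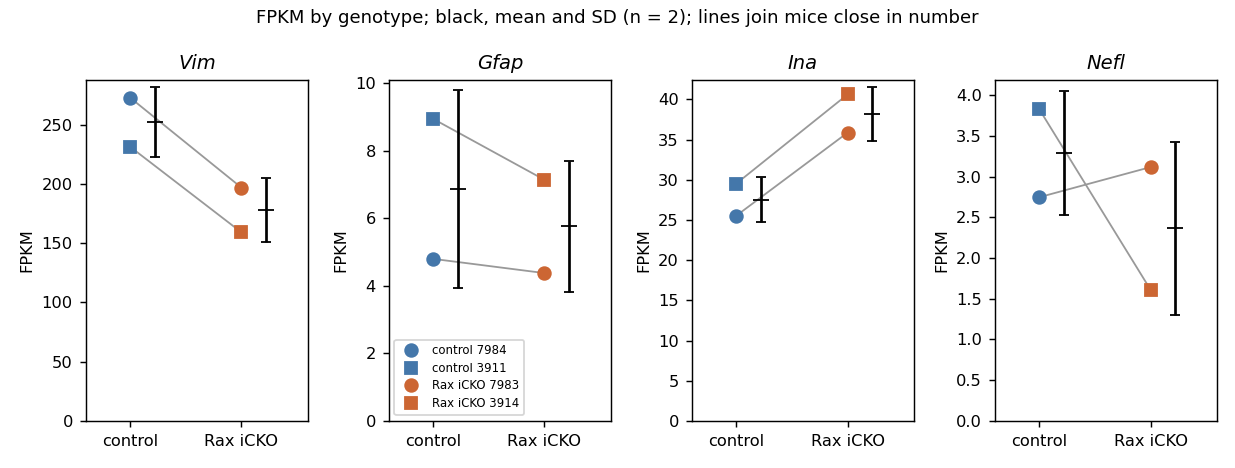
FPKM of *Vim*, *Gfap*, *Ina* and *Nefl* in control and *Rax* iCKO mice, with 1 point per mouse, the mean and SD of each group in black and grey lines between mice close in number. The lines slope down for *Vim*, up for *Ina*, slightly down for *Gfap* and in opposite directions for *Nefl*.

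Read over all 10 genes, the groups did not overlap for 4. *Ina* was higher, and *Vim*, *Synm* and *Des* were lower. Among all 17865 genes with a mean FPKM over 0, 13.7% were higher and 14.5% lower without overlap. Among the 4 tested members, 1 was higher and 1 lower, against 15.4% and 14.1% of all genes tested. By class, 3 of the 4 glial and 3 of the 5 neuronal genes had a lower mean log2(FPKM + 1) in *Rax* iCKO. These counts turned on single mice, since the difference was 0.099 for *Nefh* without mutant 3914, 0.073 for *Prph* without mutant 7983 and 0.19 for *Gfap* without control 3911, and that of *Nes* (0.061) was -0.0023 without control 7984. With equal Müller glia marker sums it was 0.091 for *Nefh* and 0.086 for *Gfap*.

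Glial and neuronal filaments were then set against each other within each library, with no test because the members define the measure. The summed FPKM of *Gfap*, *Vim*, *Nes* and *Synm* was 279.7 and 242.4 in controls 7984 and 3911, against 203.0 and 167.9 in mutants 7983 and 3914. The summed FPKM of the 5 neuronal genes was 29.5 and 34.8 in controls against 40.5 and 43.4 in *Rax* iCKO. The ratio of these sums was 9.49 and 6.97 in controls against 5.01 and 3.87 in *Rax* iCKO, without overlap. It rested on *Vim* and *Ina*, since the glial sum without *Vim* (6.69 and 10.9 in control, 6.03 and 8.72 in *Rax* iCKO) and the neuronal sum without *Ina* (3.97 and 5.26 in control, 4.63 and 2.78 in *Rax* iCKO) both overlapped. An index that gives every gene the same weight, the mean log2(FPKM + 1) of the glial minus that of the neuronal genes, was 1.55 and 1.52 in controls against 1.18 and 1.37 in *Rax* iCKO. Its difference between the genotypes was -0.26, with values of -0.35 to -0.16 when each mouse was left out in turn. This index also drew on *Vim* and *Ina*, whose log2 differences of -0.503 and 0.461 were the largest of its genes. The glial mean was lower without overlap, at 2.97 in *Rax* iCKO against 3.21 in control. The neuronal mean overlapped, at 1.697 against 1.675, so no shift of the neuronal class as a whole was shown.

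Of the markers of ganglion cells, the retinal neurons richest in neurofilaments, some were listed at 0 and others were abundant. *Pou4f1* and *Pou4f3*, transcription factors that define these cells, were listed at 0 in all 4 libraries, *Pou4f2* was listed at 0 in 3, and *Slc17a6* and *Nrn1* were under 1 FPKM in every library. *Rbpms* was at 3.66 and 3.13 FPKM in controls against 2.14 and 1.11 FPKM in *Rax* iCKO, without overlap. *Sncg* was between 1.63 and 6.09 FPKM and *Thy1* between 1.40 and 2.61 FPKM. *Tppp3* was at 75.2 and 84.0 FPKM in controls against 54.2 and 54.7 FPKM in *Rax* iCKO, also without overlap, so that 2 of the 5 ganglion cell markers tested were lower, against 14.1% of all genes tested. *Isl1*, which ganglion and bipolar cells share, was between 220.2 and 590.7 FPKM and made up most of the summed ganglion cell list (303.5 and 686.6 FPKM in controls against 418.0 and 565.5 FPKM in *Rax* iCKO). Of the 8 horizontal cell markers, *Onecut1*, *Onecut2* and *Lhx1* were under 0.2 FPKM in every library, and *Calb1* and *Tfap2b* were under 1 FPKM. The other 3 were higher, with *Sept4* at 229.1 to 332.5 FPKM, *Ndrg1* at 31.4 to 49.1 FPKM and *Slc4a3* at 7.87 to 11.6 FPKM, the last higher in *Rax* iCKO without overlap. The rod markers were lower in *Rax* iCKO, at a summed FPKM of 1149 and 1034 against 1607 and 1676 in control, and 8 of the 10 rod genes were lower without overlap, against 14.1% of all genes tested. Among bipolar cell markers, a list added after the values were seen, *Trpm1*, *Grm6* and *Prkca* were higher in *Rax* iCKO without overlap, 3 of 8 against 15.4% of all genes tested. The other 5 overlapped, with log2 fold changes of -0.015 for *Pcp2*, 0.06 for *Vsx1*, 0.095 for *Gng13*, 0.20 for *Scgn* and 0.36 for *Cabp5*. *Ina* per 1000 FPKM of the bipolar cell markers was at 5.91 and 2.78 in controls 7984 and 3911, against 6.11 and 4.63 in mutants 7983 and 3914, where the groups overlapped. Per 1000 FPKM of rod markers it was at 15.9 and 17.6 in controls against 31.2 and 39.3 in *Rax* iCKO, where they did not. Per 1000 FPKM of the axonal cytoskeleton genes it was at 97.7 and 66.2 in controls against 108.0 and 92.6 in *Rax* iCKO, with overlap, and per 1000 FPKM of Müller glia markers at 1.70 and 2.62 against 3.51 and 3.97, without. The part of these cells in the level of *Ina* was not tested. The summed pigment epithelium markers were higher in *Rax* iCKO, at 7.12 and 9.38 FPKM against 4.45 and 7.02 FPKM in controls. The summed amacrine cell markers were lower, at 117.9 and 116.1 FPKM against 130.5 and 130.1 FPKM. Gene by gene, 0 of the 2 pigment epithelium and 0 of the 4 amacrine markers tested were apart. *Ttr*, highest on average in the first list, overlapped, as did *Pax6* and *Dab1*, which made up most of the amacrine sum. Among markers too low to be tested, *Tyrp1* was higher and *Best1* and *Gad2* lower without overlap. The part of pigment epithelium and amacrine cells in the filament values was not tested. The other sums overlapped, with microglia markers at 8.09 to 55.1 FPKM, horizontal cell markers at 273.7 to 388.8 FPKM and cone markers at 142.2 to 199.3 FPKM. Endothelial markers summed to between 249.0 and 494.8 FPKM, nearly all of it *Kdr* (228.1 to 463.6 FPKM), while *Pecam1*, *Cldn5*, *Cdh5*, *Tek* and *Emcn* were under 2 FPKM in every library.

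**Figure D3:**
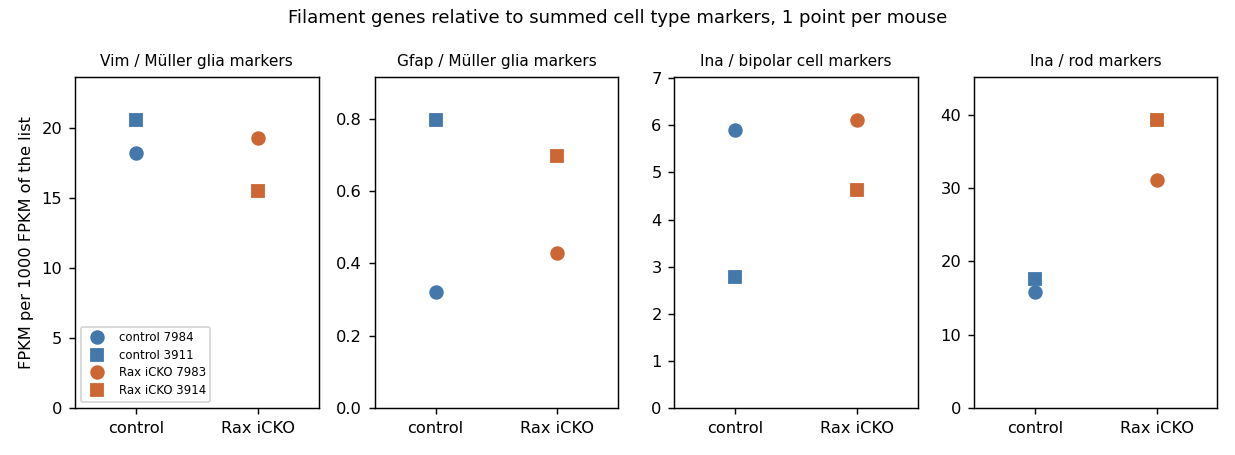
*Vim* and *Gfap* per 1000 FPKM of the summed Müller glia markers, and *Ina* per 1000 FPKM of the summed bipolar cell and rod markers, 1 point per mouse. The groups overlap in the first 3 panels, and *Ina* relative to rod markers is higher in both *Rax* iCKO mice.

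Other genes of the filament system were taken from lists of lamins, keratins and lens filaments, of linkers, of chaperones and of the axonal cytoskeleton, and 0 of the 22 tested had an adjusted p under 0.05 in limma. Of the first list, 6 of 14 genes were tested, led by *Lmna* and *Lmnb2* of the nuclear lamina at 8.70 to 13.3 and 7.67 to 10.5 FPKM. Of these 6, *Krt18* (5.76 and 5.12 FPKM in controls against 4.504 and 4.386 FPKM in *Rax* iCKO) and the lens gene *Bfsp2* (6.37 and 6.61 FPKM against 3.71 and 6.11 FPKM) were lower without overlap, compared with 14.1% of all genes tested. The summed list was at 42.9 and 47.7 FPKM in controls against 38.5 and 40.4 FPKM in *Rax* iCKO. *Krt5*, *Krt7*, *Krt12* and *Krt14*, keratins of epithelia, were listed at 0 in all libraries. *Cryab*, a small heat shock protein that binds GFAP and vimentin filaments, was at 356.2 and 306.6 FPKM in controls against 232.1 and 282.4 FPKM in *Rax* iCKO (log2 fold change -0.37). *Trim2*, a ubiquitin ligase for the light neurofilament, overlapped between the groups, at 30.8 to 38.6 FPKM. The linkers *Macf1*, *Dst* and *Plec*, giant proteins that join filaments to other parts of the cytoskeleton, were higher without overlap, with log2 fold changes of 0.37, 0.43 and 0.47. They were all 3 of the linkers tested, against 15.4% of all genes tested, and the other 4 of the 7 (*Eppk1*, *Dsp*, *Ppl* and *Evpl*) were under 0.3 FPKM and overlapped. Of the 10 axonal genes, led by *Stmn3* and *Uchl1* with overlapping groups, 5 (*Kif5a*, *Kif5c*, *Map1b*, *Map2* and *Mapt*) were higher without overlap, against 15.4% of all genes tested. *Kif5a*, a kinesin motor that carries neurofilaments, was at 4.52 and 5.34 FPKM in controls against 8.99 and 8.79 FPKM in *Rax* iCKO. It had the largest log2 fold change of these lists, 0.74, and was the only gene of the 4 lists with an unadjusted p under 0.05.

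Transcript length moved with the genotype across all genes, which touches the linkers and the 5 axonal genes. In bins chosen after the values were seen, genes whose longest GENCODE transcript had 8000 or more bases had a median log2 fold change of 0.19, and 30.6% of the 676 were higher without overlap. *Macf1*, *Dst* and *Plec* have longest transcripts of 23495, 23279 and 15455 bases, and *Map1b* one of 11808 bases. Genes of 4000 to under 8000 bases had a median of 0.08, with 21.7% higher and 7.39% lower without overlap. This bin holds *Kif5c* (6856 bases), *Kif5a* (6295 bases), *Map2* (6258 bases) and *Mapt* (5253 bases), and also *Synm* (7818 bases). Genes of 2000 to under 4000 bases, the bin that holds *Vim* (2926 bases) and *Ina* (3240 bases), had a median of -0.03, with 13.4% higher and 16.2% lower without overlap. Genes under 2000 bases had a median of -0.14, with 5.62% higher and 22.5% lower. The part of length in the values of the linkers, the axonal genes and the filament genes was not tested.

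**Figure D4:**
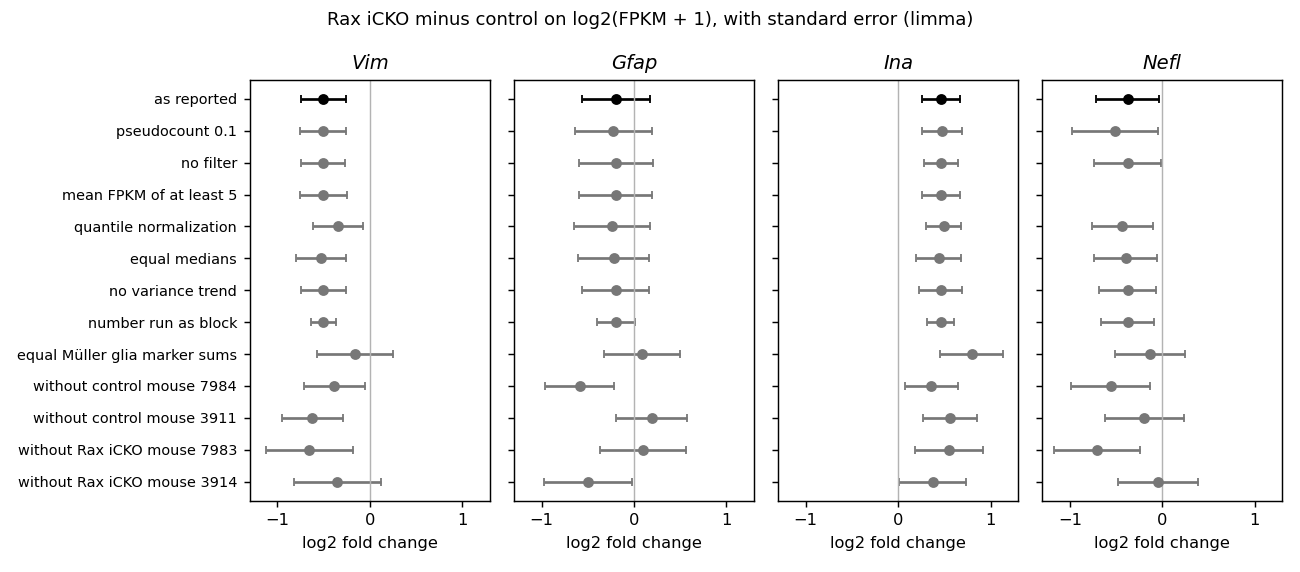
Log2 fold change (*Rax* iCKO minus control) of *Vim*, *Gfap*, *Ina* and *Nefl* with its standard error, as reported (black) and under each alternative (grey). *Vim* stays below and *Ina* above 0 throughout, whereas *Gfap* crosses 0 in 3 alternatives. *Nefl* has no value where the filter was a mean of 5 FPKM.

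The genes nearest in pattern were found by the Euclidean distance between centred log2(FPKM + 1) values over the 4 libraries, among genes averaging 5 FPKM or more. For *Vim* they were *Cd9*, *Gbe1* and *Col9a1*, at distances of 0.01, 0.04 and 0.07, and 117 of 9173 genes lay within 0.2. *Psma7*, *Atp5h* and *Rps24* were nearest to *Gfap*, at 0.01, 0.03 and 0.04, and 289 genes lay within 0.2. *Hnrnpdl*, *Kcna5* and *B4galnt1* were nearest to *Nefm* at 0.03, 0.03 and 0.04, with the few reads of *Nefm* behind its pattern.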

How the data were processed

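mTFP-positive cells of 4 mice were profiled by RNA-seq, 1 library a mouse. Single-end reads were aligned to mm10, and the authors deposited 1 FPKM value per gene symbol and library. The submitters' processing notes name TopHat2 2.1.1, Bowtie2 2.2.8, SAMtools 0.1.18 and Cuffdiff 2.2.1, while the methods of the study name Cufflinks and some other versions. The annotation and the strand setting are not given in the sources used here. FPKM were used as deposited. FPKM set each library to its own total, so abundant genes shift the others.

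Groups came from the genotype labels. limma 3.58.1 (R 4.3.3, lmFit, then eBayes with its variance trend) was run on log2(FPKM + 1) over genes averaging 1 FPKM or more, with p-values adjusted by the Benjamini-Hochberg method, after a check on simulated data. A fold change on this scale understates that of low genes. Permutation tests used scipy 1.17.1. Depth was estimated from 474 genes with 1 GENCODE M21 transcript of at least 600 bases, with 200 bases taken off (quartiles 8550000 and 9440000 for mouse 7983). Of 2310 genes under 0.5 FPKM, 90.0% fitted whole reads within 0.03 of a read and up to 20 reads. The read numbers given for members are therefore approximate, and count models were not used. *Septin4* was matched as *Sept4*.

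The members and lists were chosen with earlier results of these data known. Named were all members, the genes of the 4 cytoskeleton lists with an unadjusted p under 0.05, the most abundant genes of a list and the 3 nearest genes of *Gfap*, *Vim* and *Nefm*. Other marker genes, *Nt5c2*, the linkers, the other cytoskeleton genes given, the bipolar and cone lists, the length bins and the scaling to Müller glia markers were chosen after values were seen. Alternatives were another pseudocount, other filters, other scalings, no variance trend, a block and leaving out each mouse.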

Additional observations from a re-analysis of the deposited data

How the results depend on the processing

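The count of filament genes with an adjusted p under 0.05 was 0 under every alternative run. *Vim* kept a negative log2 fold change, from -0.66 to -0.16 (adjusted p 0.111 to 0.9999), *Ina* a positive one, from 0.36 to 0.79 (adjusted p 0.150 to 0.9999), and *Nefl* a negative one, from -0.71 to -0.05, in limma. With each mouse left out in turn *Gfap* lay between -0.59 and 0.19, and it was 0.086 with equal Müller glia marker sums, a scaling added after the values were seen. Under that scaling the difference was 0.22 for *Nes* and -0.15 for *Synm*. With a pseudocount of 0.1 it was -0.61 for *Synm*, -0.72 for *Des*, -0.66 for *Prph* and 0.77 for *Nefm*, as follows from the smaller constant added to low values. *Des* lay between -0.15 and -0.039 with each mouse left out. The glial minus neuronal difference was -0.88 as a log2 ratio of sums, where *Vim* and *Ina* carry most of the weight. The 6 genes under a mean FPKM of 1 have no value at a mean FPKM of at least 5, under quantile normalization, without the trend or with the block.

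Over all genes, the 3 calls became 0 without a filter (624 with an unadjusted p under 0.05), 0 at a mean FPKM of at least 5 (279 unadjusted), 6 with equal medians, 6 with equal Müller glia marker sums and between 17 and 20 with each mouse left out, where the lone mouse is assumed to vary like the others. The cause was not tested. With the pair of mouse numbers as a replicate block, 71 genes were called (1938 with an unadjusted p under 0.05, against 354 without the block) and 0 of the members. In limma with this block the unadjusted p was 0.0028 for *Vim* and 0.0076 for *Ina* (adjusted p 0.111 and 0.150). *Ina* also had an unadjusted p of 0.042 with quantile normalization and 0.0455 with equal Müller glia marker sums. The deviations of mice 7984 and 7983 from their group means correlated at 0.50 over 12363 genes, but the labels do not say that close numbers mark a shared litter or day. Genes far under 1 FPKM rest on a few reads.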
